A study of Caenorhabditis elegans with 12 samples.

Results

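The mRNAs described here are 9 maternal messages of Caenorhabditis elegans whose translation is known to be controlled through the 3′ UTR, in the germ line or in the early embryo. They encode the transcription factors PAL-1 and SKN-1, the Notch receptor GLP-1 and its ligand APX-1, the RNA-binding proteins MEX-3, SPN-4 and NOS-2, the yolk receptor RME-2 and the TRIM-NHL protein LIN-41. The genes were listed by name, and every probe set annotated to 1 of them alone was taken, which gave 16 of the 13333 probe sets tested and 9 of the 10334 genes named. For a gene with several probe sets, the brightest one stands for the gene, and the others are given beside it. A further probe set, annotated to nos-2 and to another gene together, was not counted.

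The series compared wild-type worms of strain N2 with worms carrying the allele ife-1(bn127). The gene encodes a form of the cap-binding factor eIF4E found in the germ line, where eIF4E brings capped mRNAs to the ribosome. Both strains were grown at 20 °C for a final 3 days on OP50 bacteria with added egg yolk, and each was harvested 3 separate times as a whole-worm mixture of eggs, larvae and adults. Lysates were resolved on gradients of 10 to 45% sucrose, and RNA lighter than 80S (nonpolysomal, NP) and heavier than 80S (polysomal, P) was pooled and measured on separate Affymetrix arrays, which gave 12 arrays in 4 groups of 3. A harvest is called a culture below, and cultures 1 to 3 of either strain bear the set numbers of the labels. The 3 cultures per strain limit the precision of every value. RNA came from all tissues of the worm, so more cells of a type and more mRNA per cell cannot be told apart, and the gonad was not measured by itself.

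Maternal mRNAs are made in the germ line and stored in the oocyte, and many are kept silent until a given time or cell. RNA-binding proteins such as GLD-1, the PUF proteins, OMA-1, MEX-3 and POS-1 bind to sequences in the 3′ UTR and repress or permit translation. An mRNA that is being translated carries several ribosomes and sediments with polysomes, whereas a repressed or stored mRNA sediments with lighter particles. The share of an mRNA in the polysomal fraction is therefore used as a measure of its translation.

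Signals were quantile-normalized, so every value states a level against the other mRNAs on the same array. The polysomal share is P/(NP + P) in percent, association is log2(P/NP), and combined abundance is log2(NP + P), each formed within a culture. Since both arrays of a culture were brought to the same distribution, a share of 50% is near the typical mRNA and does not state that an equal number of molecules lay in each fraction. The median signal of an array, as deposited, was between 367.3 and 428.6. The ife-1 probe set had present calls on every wild-type array (3 of 3 per group), at 3566.7 to 5997.3, and on no mutant array (0 of 3 per group), at 62.3 to 177.7. The position of this probe set relative to the bn127 change was not known, so loss of the transcript and loss of the probed stretch cannot be told apart. Wild-type culture 2 stood apart: its log2(P/NP) correlated at 0.773 and 0.755 with cultures 1 and 3, and those gave 0.858 between them. Results are therefore also given without that culture. Of the 16 probe sets of the list, 14 were called present on all 12 arrays. The exceptions were glp-1, called present on 0 of 6 wild-type and on 6 of 6 mutant arrays, and the dimmest of the skn-1 probe sets, called present on 8 arrays.

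In wild type, most of the 9 mRNAs lay toward the nonpolysomal fraction. Nonpolysomal signal was significantly higher than polysomal signal for 7 genes, namely nos-2, pal-1, spn-4, glp-1, apx-1, rme-2 and mex-3, and for 13 of 16 probe sets (limma, adjusted p under 0.05). Of all probe sets, 29.3% passed in this direction. No gene of the list was significantly polysomal, against 26.5% of all probe sets. The median log2(P/NP) was -0.66 over the 9 genes and -0.05 over all genes. For glp-1 neither wild-type fraction gave a present call, so its place rests on undetected signals, and 6 called genes remain when it is set aside. Without wild-type culture 2 the count was 8 genes, without set 1 it was 4, and without set 3 it was 3. Scaling on the bacterial control probe sets moved the median of all probe sets from -0.04 to 0.55, and then 3 genes passed, nos-2, pal-1 and spn-4. In that scaling lin-41 was significantly polysomal, at 0.75 (adjusted p = 0.029).

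The mRNAs were spread widely along the gradient, as shown in the plot of polysomal shares. At the low end, nos-2 had a wild-type share of 18.4% ± 5.04 (SD, n = 3), and only 0.852% of the 10334 genes lay lower. Next came pal-1 at 21.3% ± 2.2, with 1.79% of genes lower, and spn-4 at 25% ± 0.98, with 3.54% of genes lower. These shares correspond to P/NP ratios 4.57-fold, 3.72-fold and 3.00-fold below 1. A middle group followed, with apx-1 at 38.9% ± 3.83, rme-2 at 39.5% ± 3.85 and mex-3 at 40.7% ± 2.80. Between 22.4% and 26.9% of genes lay below these. The signals of glp-1, which no wild-type array detected, gave 35.7% ± 5.48, and the gene has no settled place in this order. At the upper end, skn-1 stood at 46.9% ± 9.18 and lin-41 at 51.4% ± 8.02, and neither differed significantly between fractions (adjusted p = 0.463 and 0.725). The skn-1 mean rests on wild-type culture 2, at 57.5%, with 41.4 and 41.8% in cultures 1 and 3. A second skn-1 probe set, at 40% ± 6.48, was significantly nonpolysomal (limma, log2(P/NP) -0.59, adjusted p = 0.0171), so the place of skn-1 is not settled. Among neighbours in this order, the culture ranges did not overlap between pal-1 and spn-4 or between spn-4 and apx-1. The second, dimmer spn-4 probe set, at 15.1, 27.9 and 17.2%, did overlap pal-1. All other neighbours overlapped, so their order is not resolved.

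**Figure D1:**
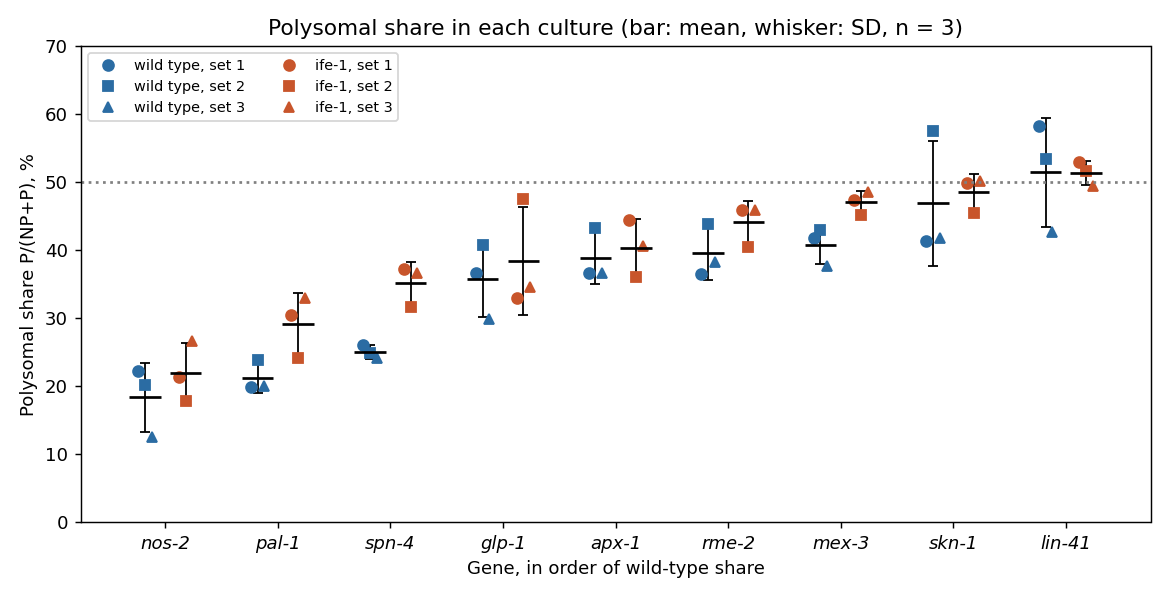
Polysomal share P/(NP + P) in percent (vertical axis) of the 9 genes (horizontal axis, in order of wild-type share), with 1 point per culture, blue for wild type and orange for ife-1, and symbols for the sets. Bars are means and whiskers SDs of 3 cultures, and the dotted line marks 50%. The shares of nos-2, pal-1 and spn-4 lie lowest in wild type, and the genotypes do not overlap for pal-1, spn-4 and mex-3.

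In the ife-1 mutant the order of the mean shares was the same with glp-1 set aside, and 8 of the 9 means were above those of wild type, differences tested further on. Nonpolysomal signal was significantly higher for 5 genes, nos-2, pal-1, spn-4, glp-1 and apx-1, and for 9 probe sets, against 26.1% of all probe sets. The count was 3 without set 1, without set 3 and without ife-1 culture 3, and it was also 3 with the fractions unpaired and with bacterial control scaling. The median log2(P/NP) was -0.57 over the 9 genes and -0.07 over all genes. Mean shares ran from 21.9% ± 4.44 for nos-2 and 29.2% ± 4.6 for pal-1 to 48.5% ± 2.64 for skn-1 and 51.3% ± 1.79 for lin-41. The culture ranges of all neighbours overlapped. The share of nos-2 remained among the lowest measured, with 0.629% of genes lower, while 11.6% of genes now lay below spn-4.

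The central comparison asked whether polysomal content differed between ife-1(bn127) and wild-type worms. No member passed for association in limma over all probe sets, in either direction, where 0.128% of all probe sets were called. At an unadjusted p under 0.05, pal-1 and spn-4 (2 of 9 genes) were higher and 0 were lower, and among all 10334 genes 1146 were higher and 1024 lower. The median change of the 9 genes was 0.27, beside 0.05 for all genes, and 8 of 9 values were positive. That sign follows the scaling: 6 values were positive with signals as deposited, 5 with median scaling and 2, pal-1 and spn-4, with bacterial control scaling. The last of these moved the median of all probe sets to -0.47, and the median of the 9 genes was -0.46. Relative to the median of all probe sets, the list stood 0.24 higher with quantile normalization and 0.01 higher with signals as deposited. Median and bacterial control scaling shift each array by a constant, so they give the same 0.01 by construction and are no separate check. Over all probe sets, 4 were called higher and 13 lower, with counts of 3 and 6 for signals as deposited, 4 and 8 for median scaling, and 10 and 342 for bacterial controls. The replicate block left 0 calls among the members and 0 among all probe sets. Without wild-type culture 2 the median of the 9 genes was 0.40, and without wild-type culture 3 it was 0.04.

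The largest association difference was that of spn-4. SPN-4 is an RNA-binding protein with an RNA recognition motif, needed in the early embryo for spindle orientation and for the expression of cell-fate regulators. Its shares were 26.1, 24.9 and 24.1% in wild-type cultures 1 to 3 and 37.2, 31.7 and 36.7% in ife-1 cultures 1 to 3. All mutant cultures lay above all wild-type cultures, and the wild-type values were within a narrow band. The change in log2(P/NP) was 0.70 ± 0.20 (SE), with a 95% interval of 0.25 to 1.16, an unadjusted p of 0.00703 and an adjusted p of 0.117. The adjusted p ranged from 0.0427 to 0.555 over the alternatives, and it passed only among the brighter probe sets (0.0427). Changes of spn-4 were positive in every scaling, between 0.32 and 0.90. As deposited, polysomal signals were 2632.9, 2313.2 and 2226.5 for the wild type against 5179.8, 4950.2 and 4905.1 for the mutant. Deposited nonpolysomal signals were 9392.4, 8489.2 and 8075.4 against 9166.7, 11998.9 and 8425.2. The deposited polysomal signals of the genotypes were thus clearly apart, whereas the deposited nonpolysomal signals overlapped. The shares come from quantile-normalized signals, and there the nonpolysomal values did not overlap. In log2 they were 12.87, 12.78 and 12.82 for wild type against 13.23, 13.50 and 13.16 for ife-1. A second, dimmer probe set of spn-4 had mean shares of 20.0% ± 6.88 and 27.7% ± 4.6, and its association change was 0.65 ± 0.32 (SE; adjusted p = 0.3).

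For pal-1 the pattern was similar. PAL-1 is a caudal-related homeodomain protein that specifies posterior blastomeres, and its mRNA is held silent in oocytes and in anterior blastomeres, where MEX-3 acts on its 3′ UTR. Shares were 19.9, 23.8 and 20.0% for wild type against 30.4, 24.1 and 33.0% for ife-1. The genotypes did not overlap, although ife-1 culture 2 lay only slightly above wild-type culture 2. The association change was 0.61 ± 0.23 (SE; 95% interval 0.07 to 1.14; unadjusted p = 0.0313, adjusted p = 0.2), and it was positive in each scaling, from 0.29 to 0.86. The adjusted p lay between 0.0887 and 0.653 over the alternatives. The dimmer probe sets of pal-1 had changes of 0.78 ± 0.34 and 0.33 ± 0.26 (SE; adjusted p = 0.246 and 0.498), and the genotypes overlapped in both. With bacterial control scaling these values were -0.04 and -0.46.

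The third gene without overlap was mex-3, which encodes the KH-domain protein that represses pal-1 mRNA and is itself enriched in anterior blastomeres. Its shares were 41.7, 42.9 and 37.6% in the wild type, 47.4, 45.1 and 48.5% in ife-1. The change of 0.37 ± 0.20 (SE; 95% interval -0.08 to 0.82) did not pass (adjusted p = 0.327), and it was -0.17 with bacterial control scaling. A second probe set gave means of 41.4% ± 5.50 and 47.1% ± 0.789, and there wild-type culture 2, at 47.5%, lay within the mutant range of 46.4 to 48.0%. Of all probe sets, 14.8% had mutant shares above all wild-type shares, beside 3 of 9 genes and 3 of 16 probe sets here.

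The other 6 genes overlapped between genotypes in their shares. NOS-2, a Nanos-related protein made in the primordial germ cells, had mRNA shares of 22.2, 20.2 and 12.6% in wild-type and 21.3, 17.8 and 26.6% in mutant cultures. The yolk receptor gene rme-2, whose mRNA GLD-1 represses in the distal gonad, had 36.5, 43.9 and 38.2% against 45.9, 40.4 and 45.9%. In both genes at least 1 wild-type culture exceeded a mutant culture, and the association changes were 0.34 ± 0.31 and 0.27 ± 0.22 (SE; adjusted p = 0.565 and 0.504). For apx-1, which encodes the Delta-like ligand by which the P2 blastomere signals, shares were 36.6, 43.3 and 36.7% for wild type against 44.4, 36.1 and 40.6% for ife-1. Those of lin-41, which acts in oocyte growth and maturation and in larval tissues, were 58.2, 53.4 and 42.6% against 52.9, 51.6 and 49.4%. Neither gene moved in a shared direction: changes were 0.09 ± 0.22 for apx-1 and -0.01 ± 0.26 for lin-41 (SE; adjusted p = 0.848 and 0.989). The 95% intervals ran from -0.42 to 0.60 for apx-1 and from -0.61 to 0.59 for lin-41, so changes of either sign up to those sizes were not resolved.

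The receptor gene glp-1 and the transcription factor gene skn-1 need the detection calls beside them. GLP-1, the Notch receptor that keeps germline stem cells dividing and that receives the APX-1 signal in the embryo, had mRNA shares of 36.7, 40.7 and 29.8% in wild type, all from arrays without a present call, against mutant shares of 33.0, 47.5 and 34.6%. The wild-type shares are thus not a measured level, and the change of 0.16 ± 0.30 (SE) has no bound. SKN-1 specifies the EMS blastomere and also serves in the intestine of later stages in the response to stress. Its brightest probe set had shares of 41.4, 57.5 and 41.8% in the wild type, 49.8, 45.4 and 50.2% in ife-1. Wild-type culture 2 was the highest of all 6 and the other wild-type cultures were the lowest. A second skn-1 probe set had means of 40% ± 6.48 and 46.2% ± 0.933 and a change of 0.37 ± 0.24 (SE; adjusted p = 0.412). The dimmest one, with deposited signals of 4.3 to 85.3, gave shares from 33.6 to 81.8%, and its change of -0.87 ± 0.91 (SE) had the opposite sign.

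**Figure D2:**
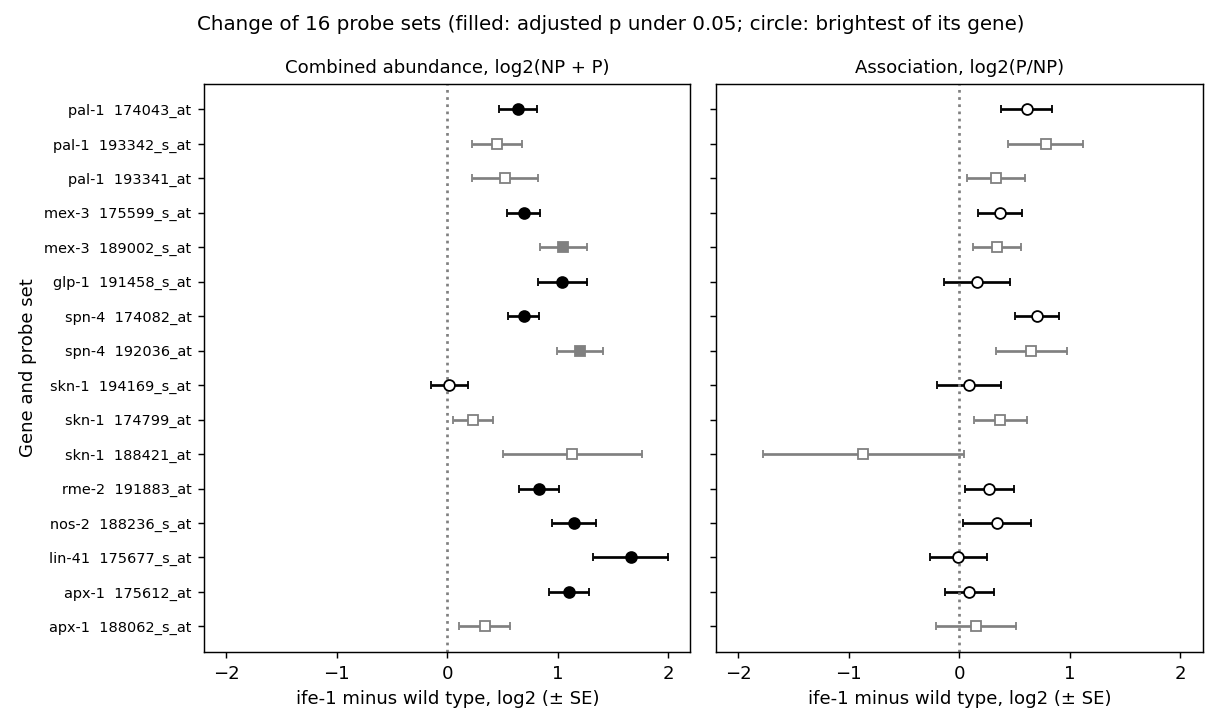
Changes between genotypes (horizontal axes, ife-1 minus wild type, log2, ± SE from limma) for all 16 probe sets (vertical axis), in combined abundance on the left and in association on the right. Filled symbols passed an adjusted p of 0.05 and circles mark the brightest probe set of a gene. In abundance 10 probe sets passed and all lie above 0, while in association none passed.

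The authors' deposited table gives the mean fold of the polysomal share, wild type over ife-1. For the brightest probe sets the authors' deposited table lists 0.642 for spn-4, 0.657 for pal-1, 0.855 for mex-3 and 0.891 for rme-2. The same authors' deposited table lists 0.995 for nos-2, 0.999 for skn-1, 1.02 for glp-1, 1.03 for apx-1 and 1.04 for lin-41. The order of the first 3 genes is that of the association changes above, and the rest differ in part. The fold of nos-2 is near 1, whereas its association change was 0.34, above the 0.27 of rme-2. For glp-1 and apx-1 the folds state a lower mutant share, whereas their association changes were 0.16 and 0.09. The deposited folds are of P/(NP + P) and were not formed from the quantile-normalized log2(P/NP).

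Combined abundance separated the genotypes more clearly than association. In the mutant, 8 of the 9 genes and 10 of 16 probe sets rose (limma, adjusted p under 0.05), where 21.0% of all probe sets rose, and none fell, against 18.5% of all probe sets. The median change was 0.83 over the 9 genes and 0.03 over all genes. In the same 8 genes all mutant cultures lay above all wild-type cultures, a pattern found in 29.5% of all probe sets. They include glp-1, whose present calls were all on mutant arrays, so its rise starts from undetected signals. Detection calls also decided which probe sets the authors kept, so the place of glp-1 in the count of 8 is no support. Among probe sets present on all 12 arrays, which leaves glp-1 out, the median was 0.76 for the list and 0.12 over all such probe sets. That restriction was chosen after seeing the data. The 9 brightest values were positive in each scaling. With median scaling 5 genes passed, and pal-1, mex-3 and spn-4 did not (adjusted p = 0.151, 0.0521 and 0.0767). Over all probe sets 2804 were higher and 2470 lower, and with bacterial control scaling, which moved the median of all probe sets from 0.06 to 0.27, these counts were 3645 and 1353. The count of 8 genes was 0 without set 1, 2 without set 3 and 5 without ife-1 culture 1. It was 8 without wild-type culture 2. In the fits without a set only 2 cultures per genotype remained.

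The largest rise was that of lin-41. Its combined log2 signals were 8.83, 9.86 and 9.54 for wild type against 11.25, 10.46 and 11.51 for ife-1. Set 1 differed most and set 2 least, and no mutant value reached down to the wild-type range. The change was 1.66 ± 0.34 (SE; 3.16-fold; adjusted p = 0.00845), a change exceeded by few genes, since 99.5% of the 10334 genes had a smaller one. Polysomal and nonpolysomal signals rose alike, by 1.67 ± 0.33 and 1.68 ± 0.40 (SE; adjusted p = 0.00838 and 0.0233).

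In nos-2 and apx-1 abundance was more than doubled. Combined log2 signals of nos-2 were 10.20, 10.05 and 10.16 for wild type against 11.63, 10.91 and 11.32 for ife-1, a change of 1.15 ± 0.20 (SE; 2.23-fold; adjusted p = 0.00486). Those of apx-1 were 10.79, 10.71 and 10.24 against 11.69, 11.64 and 11.70, a change of 1.10 ± 0.18 (SE; 2.14-fold; adjusted p = 0.00395). The genotypes were apart in both genes, with tight wild-type values in nos-2 and tight mutant values in apx-1. A second, dim apx-1 probe set gave 0.34 ± 0.23 (SE; adjusted p = 0.274), and its genotypes overlapped.

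For the Notch receptor glp-1, combined log2 signals were 9.4, 9.42 and 10.04 in wild type, without present calls, and 10.78, 10.42 and 10.78 in the mutant. All mutant values lay above the wild-type ones. Since no wild-type array detected the mRNA, its wild-type level may lie below these signals. The bound formed for such a gene equalled the fitted fold here, and it takes no account of the spread between cultures. The authors kept probe sets by detection calls, and glp-1 had these on mutant arrays alone. It was thus kept only through the genotype in which it is high, so the p-values below are no support for a rise. Combined signal was 2.06-fold higher in the mutant (limma, 95% interval 0.53 to 1.55 in log2; adjusted p = 0.00942). Polysomal signal was 2.2-fold higher (interval 0.74 to 1.53 in log2; adjusted p = 0.0037). Nonpolysomal signal was 1.96-fold higher (interval 0.25 to 1.69 in log2), but it missed the threshold (adjusted p = 0.0519) and overlapped between genotypes.

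Abundance also rose for the yolk receptor gene and for mex-3, spn-4 and pal-1. Combined log2 signals of rme-2 were 12.94, 12.67 and 13.06 in the wild type, 13.90, 13.50 and 13.74 in ife-1 (change 0.83 ± 0.18, SE; adjusted p = 0.0099). Those of mex-3 were 13.35, 13.07 and 13.33 against 13.97, 14.02 and 13.82 (0.69 ± 0.15; adjusted p = 0.0119). The genotypes did not overlap in either gene, and a second mex-3 probe set rose by 1.05 ± 0.21 (SE; adjusted p = 0.00777). For spn-4 the values were 13.31, 13.19 and 13.21 against 13.91, 14.05 and 13.82 (0.69 ± 0.14; adjusted p = 0.00914), and its second probe set rose by 1.20 ± 0.21 (SE; adjusted p = 0.00436). For pal-1 they were 13.19, 13.24 and 12.75 against 13.72, 13.70 and 13.69 (0.64 ± 0.17; adjusted p = 0.0227). Both genes were apart between genotypes, but the other probe sets of pal-1, at 0.45 ± 0.23 and 0.52 ± 0.30 (SE; adjusted p = 0.158 and 0.206), overlapped and did not pass.

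The exception was skn-1. Combined log2 signals were 12.09, 11.76 and 12.13 for wild type against 11.93, 12.15 and 11.96 for ife-1, and the values of both genotypes were interleaved. The difference was 0.02 ± 0.17 (SE; 95% interval -0.36 to 0.41; adjusted p = 0.917), and 49.7% of genes had a smaller change. Its second probe set gave 0.23 ± 0.18 (SE; adjusted p = 0.326), and the dimmest gave 1.13 ± 0.63 (SE; adjusted p = 0.187).

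**Figure D3:**
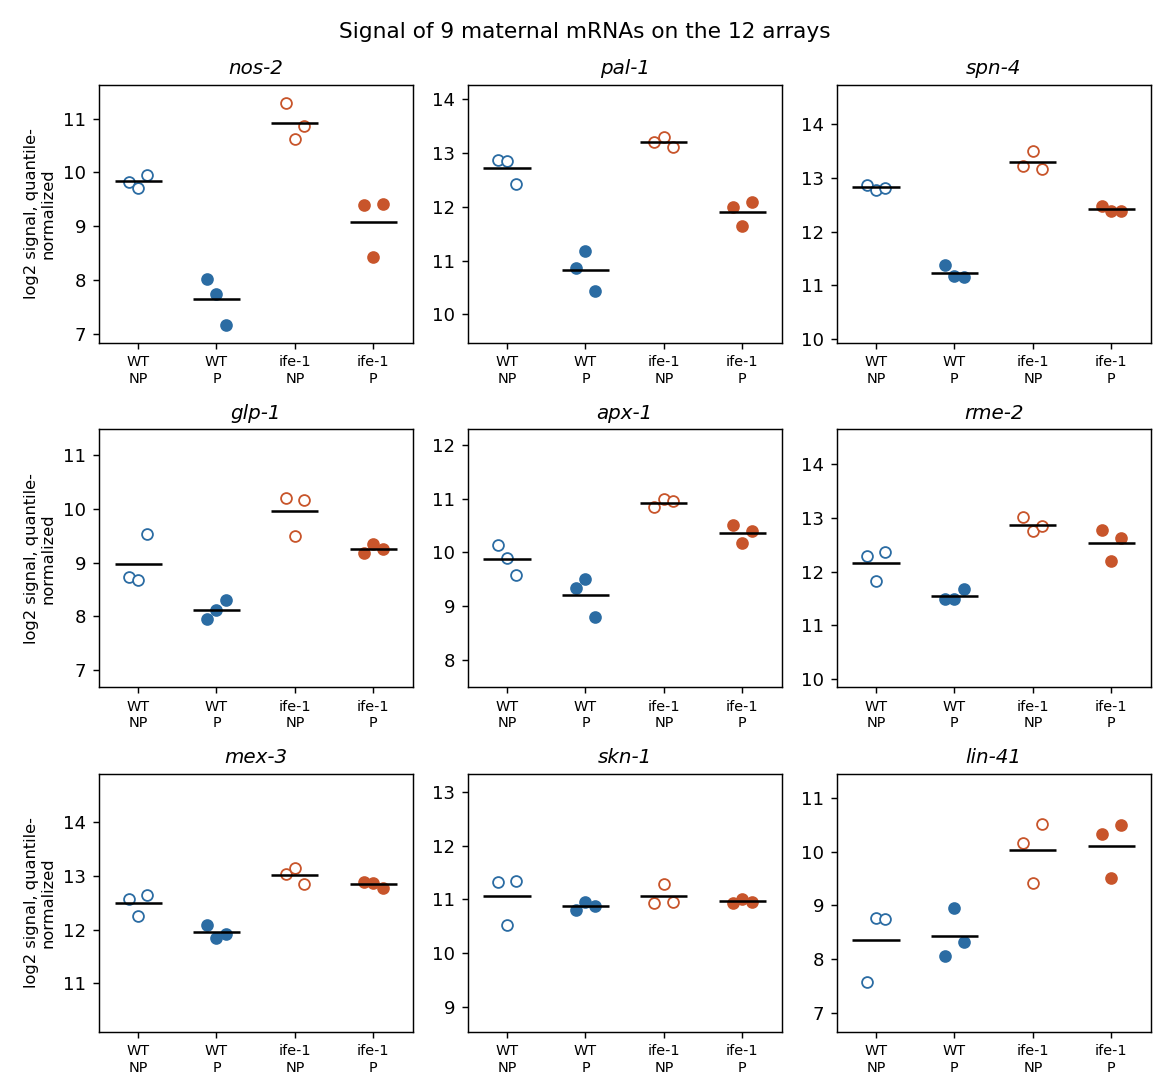
Quantile-normalized log2 signal (vertical axes, each spanning the same range) of the 9 genes on the 12 arrays, by group (horizontal axes; WT, wild type; NP, nonpolysomal, open; P, polysomal, filled), with a bar at each group mean of 3 cultures. Polysomal signal is higher in ife-1 than in wild type without overlap for every gene but skn-1. The polysomal pattern was found in 28.7% of all probe sets. Nonpolysomal signal is so for every gene but skn-1 and glp-1, with no share of all probe sets given for comparison.

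Split by fraction, the difference was called more often in polysomal than in nonpolysomal RNA. Polysomal signal rose in 8 of 9 genes and in 11 of 16 probe sets, against 18.9% of all probe sets, with a median change of 1.13 over the 9 genes and 0.05 over all genes. Nonpolysomal signal rose in 4 genes, rme-2, nos-2, lin-41 and apx-1, and in 6 probe sets, against 14.1% of all probe sets, with a median of 0.71 over the 9 genes and 0.04 over all genes. In polysomal signal the mutant cultures lay above all wild-type cultures for 8 genes, a pattern found in 28.7% of all probe sets. In nonpolysomal signal this held for 7 genes, but the share of all probe sets is not given for that fraction. Whether that count is more than usual therefore cannot be told. At an unadjusted p under 0.05 in limma, 8 genes were higher in each fraction. Of all 10334 genes, 2545 were so in polysomal and 2228 in nonpolysomal RNA. The counts of 8 include glp-1, which no wild-type array detected and which was kept only through its calls on mutant arrays, so it adds no support. The difference between the fractions is the association change above, which no member passed. Polysomal changes ran from 0.89 ± 0.16 for mex-3 to 1.67 ± 0.33 for lin-41 (SE), apart from 0.09 ± 0.16 for skn-1. In spn-4 the polysomal signal rose by 1.18 ± 0.16 (SE; adjusted p = 0.00281), and the nonpolysomal difference of 0.48 ± 0.18 did not pass (adjusted p = 0.086). For pal-1 the corresponding values were 1.09 ± 0.24 (adjusted p = 0.012) and 0.49 ± 0.20 (adjusted p = 0.104). Without set 1 no member passed in either fraction, and without set 3 the counts were 1 gene in polysomal and 0 in nonpolysomal RNA. The nonpolysomal count was also 0 without ife-1 culture 1 or without ife-1 culture 3, and 2 without wild-type culture 1. Without wild-type culture 2 it was 3, and the polysomal count was 8. Scaled on bacterial controls, 3433 probe sets were higher and 472 lower in nonpolysomal RNA, in place of 1875 and 1758, and the median over all probe sets moved from 0.07 to 0.54.

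Markers of the tissue that makes these mRNAs moved with them, as shown in the plot of abundance by gene list. Of 11 measured oocyte and eggshell genes, 10 rose in combined abundance, with a median of 1.15, and their summed signal was 89196 to 101930 in wild-type and 162489 to 202772 in mutant cultures. Of 12 germ line genes 9 rose, with a median of 0.98, and their summed signal was 18962 to 22668 against 33198 to 45227. All 23 of these markers were called present on all 12 arrays. Of 10 sperm genes 0 passed in limma, while 2 were lower at an unadjusted p under 0.05, with sums of 24584, 5785 and 24638 in wild-type cultures 1 to 3 against 8627 to 9315 for ife-1. Wild-type culture 2 lay below every mutant culture, and the other wild-type cultures lay above them. Without wild-type culture 2, 6 of the 10 sperm genes fell, and their median abundance change was -0.99 in place of -0.42. In the same fit 10 oocyte and eggshell genes, 8 germ line genes and 0 zygotic embryo genes rose. Of 12 listed zygotic embryo genes only 4 were measured, 3 of them present on all 12 arrays. Of these 4 genes 0 passed, with 1 lower at an unadjusted p under 0.05, and sums of 5649 to 6806 and 6713 to 7791. Intestinal genes, 7 measured, had 1 that rose and 2 that fell, with sums of 82123 to 92399 and 78706 to 85809, and without wild-type culture 2 the counts were 0 and 1. In association none of these marker genes passed in limma. The association values that follow are given for quantile normalization alone, and bacterial control scaling moved the median of all probe sets to -0.47. The median association change was 0.18 for the oocyte and eggshell genes, 0.13 for the germ line genes and -0.23 for the sperm genes. It was 0.71 for the intestinal genes, all 7 of them positive, and their summed polysomal share was 53.6 to 56.9% in wild type and 61.8 to 63.3% in ife-1. It was -0.57 for the zygotic embryo genes, with 0 of 4 positive, and their summed share was 43.2 to 48.0% against 33.5 to 34.8%. That sum is mostly the signal of lin-26, the brightest of the 4, whose own mean share was 43.4% against 32.8%. At an unadjusted p under 0.05, 1, 1, 0, 3 and 0 genes of these lists were higher and 0, 0, 1, 0 and 2 lower, in the order given. Without wild-type culture 2 the medians were 0.42, 0.07, -0.18, 0.34 and -0.54. The part of these tissue differences in the abundance and association of the 9 mRNAs was not tested.

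**Figure D4:**
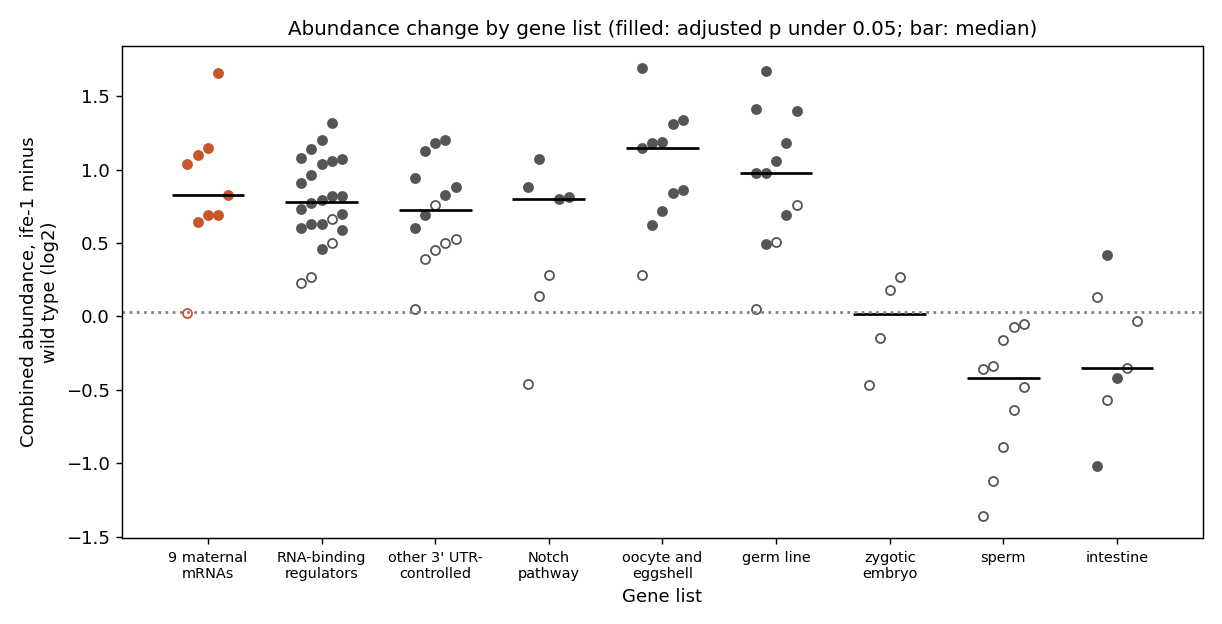
Change in combined abundance (vertical axis, ife-1 minus wild type, log2) of each measured gene by gene list (horizontal axis), with filled points for an adjusted p under 0.05, a bar at each list's median and a dotted line at the median of all genes, 0.03. The median of the 9 maternal mRNAs (orange) is 0.83, beside 0.78 for the RNA-binding regulators, 1.15 for the oocyte and eggshell genes, 0.98 for the germ line genes, -0.42 for the sperm genes and -0.35 for the intestinal genes, and skn-1 lies at 0.02.

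Regulators of such mRNAs, among them proteins known to bind their 3′ UTRs, are themselves made from maternal mRNAs. Of 26 listed, 24 were measured, and not all of these bind a 3′ UTR. Of these, 19 were significantly nonpolysomal and 1 polysomal in wild type, with a median log2(P/NP) of -0.92. In the mutant 10 were nonpolysomal and 1 polysomal, with a median of -0.41. In association 0 passed in limma, 9 had an unadjusted p under 0.05, each of them higher, and the median was 0.43. The mRNA of gld-1, whose product represses glp-1, pal-1 and rme-2, had a wild-type share of 26.8% ± 2.37 and a mutant share of 39.0% ± 2.37 (adjusted p = 0.0933). For oma-2 the shares were 32.4% ± 3.19 and 43.9% ± 3.06, and for ifet-1, which encodes an eIF4E-binding protein, 44.9% ± 1.76 and 56.9% ± 4.89. The PUF gene fbf-1 had 31.5% ± 3.74 and 42.4% ± 2.79. Mutant cultures were above wild-type cultures in all 4, and adjusted p for oma-2, ifet-1 and fbf-1 was 0.126, 0.136 and 0.142. These 4 were named because their unadjusted p for association was the smallest of the list, so their separation is no further support. Association values of this list are given for quantile normalization alone. Bacterial control scaling moved the median association change of all probe sets from 0.03 to -0.47, so the signs depend on the scaling. With quantile normalization, association changes were positive in 23 genes and negative in 1, nos-3. Its shares were 52.5% ± 1.79 and 45.0% ± 2.13, with mutant cultures below wild-type cultures (limma, adjusted p = 0.245). In abundance 20 of the 24 rose and 0 fell, with a median of 0.78.

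A list of 16 other mRNAs with reported 3′ UTR control, 14 of them measured, is given beside them. It shares gld-1 and puf-5 with the regulators and him-3, htp-1, syp-2 and syp-3 with the germ line markers, so the lists are not separate evidence. In wild type 13 were significantly nonpolysomal and 0 polysomal, with a median of -1.29, and in the mutant 14 and 0, with a median of -0.73. In association 0 passed, 5 had an unadjusted p under 0.05 in limma, each of them higher, and the median was 0.37. These association values, too, are given for quantile normalization alone, and their signs depend on the scaling. The lowest p belonged to cdc-25.3, a cell cycle phosphatase gene, with shares of 13.9% ± 0.996 and 23.3% ± 1.72 (adjusted p = 0.0762), although no wild-type polysomal array called it present. After gld-1 came mes-3, with 29.4% ± 1.78 and 39.4% ± 1.99, and the sex determination gene fem-3, with 22.1% ± 7.16 and 34.9% ± 3.24, for which 1 of 3 wild-type polysomal arrays gave a present call. In abundance 8 rose and 0 fell, with a median of 0.73.

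Of the germline and embryonic Notch pathway, to which glp-1 and apx-1 belong, 7 of 9 further genes were measured. In wild type 3 were nonpolysomal and 1 polysomal, and in association 0 passed in limma, with 0 at an unadjusted p under 0.05. Abundance rose in 4 and fell in 0, with 1 lower at an unadjusted p under 0.05 and a median of 0.80. That gene, named after its value was seen, is the other Notch receptor gene lin-12, at -0.46 (adjusted p = 0.0707), and it had no present call in nonpolysomal RNA. Among them aph-1, a gamma-secretase subunit gene, rose by 1.07 (adjusted p = 0.00809), and sup-17, an ADAM protease gene, by 0.81 (adjusted p = 0.0071). The target gene sygl-1 differed by 0.28 and the gamma-secretase subunit gene pen-2 by 0.14 (adjusted p = 0.394 and 0.496). Their shares were 41.8% and 48.8% for aph-1, 53.6% and 59.0% for sup-17, 34.2% and 42.9% for sygl-1 and 43.2% and 47.8% for pen-2, in wild type and mutant.

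Averaged over the 9 genes, the polysomal share was 35.5, 38.9 and 31.5% in wild-type cultures 1 to 3 and 40.2, 37.8 and 40.6% in ife-1 cultures 1 to 3. Wild-type culture 2 lay above ife-1 culture 2, so the genotypes overlapped. The genes whose shares lay nearest to this average over the 6 cultures, of 10325 other genes, were srh-217, clic-1, W04D2.4, patr-1 and Y69A2AR.1, with root mean square differences of 1.06, 1.17, 1.52, 1.57 and 1.67 percentage points.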

How the data were processed

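Each of the 12 arrays holds the nonpolysomal or polysomal RNA of 1 culture, with 3 arrays per group, and groups follow the labels. The deposited intensities are linear probe set signals imported from the Affymetrix files, per the labels. Software, version and scaling: not given in the sources used here. The authors kept probe sets by detection calls, per the file headers, and the columns of these calls name the group without the set. The deposited ratios are folds of P/(NP + P) and of NP + P, wild type over ife-1, averaged over the sets, per the deposited outline of the procedure. The deposited workbook holds 36 further columns with values of samples, which were left aside.

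Without the 39 control probe sets, 13333 remained. The platform annotation names 1 gene for 12616 of them, several for 459 and none for 258. Of those with 1 gene, 12595 were found in the RefSeq gene table. Signals below 1 were set to 1 (5 values), converted to log2 and quantile-normalized. Combined abundance gives both fractions equal weight and takes no account of how much RNA each held. Tests used limma 3.58.1 (lmFit and eBayes on all 6 cultures; R 4.3.3). P-values were adjusted by Benjamini and Hochberg's method over all probe sets, and the threshold was 0.05. The procedure was also run on simulated data with noise drawn separately for each array. No shared culture effect or outlying culture was simulated, so that run does not cover the spread between these cultures. Figures were drawn with matplotlib 3.10.9 and pandas 2.3.3 in Python 3.11.15. For a gene without a present call in a genotype, the bound takes on each array its own signal or, where higher, the dimmest probe set that had present calls on the 3 arrays of that group.

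The 9 genes, the other gene lists and the markers were chosen with earlier results of these data known. Named were all 9 genes with each of their probe sets, ife-1, up to 4 genes of each other list with the smallest unadjusted p for association, and the 5 genes nearest to the average share. Alternatives were signals as deposited, median scaling, scaling on 18 bacterial and phage control probe sets, brighter probe sets, an offset of 50, a replicate block, unpaired fractions and leaving out sets or single cultures. A restriction to probe sets present on all 12 arrays was chosen after seeing the data.

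Correlations between arrays of a group ranged from 0.916 to 0.987, and no array was a duplicate. Cultures of a set were grown as a pair and harvested separately, per the deposited outline. Across probe sets, the deviations of both cultures of a set from their genotype means had correlations of -0.032, -0.0627 and 0.0234 (association, sets 1 to 3) and -0.113, -0.0532 and 0.13 (abundance).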

Additional observations from a re-analysis of the deposited data

How the results depend on the processing

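A replicate block on the set left 0 of 17 association calls (limma; 1200 higher and 1269 lower values had an unadjusted p under 0.05), and the block changed no other call count by over 1.5 times: 8 genes rose in abundance, 8 in polysomal and 4 in nonpolysomal signal. Over all probe sets, association calls were 9 with signals as deposited, 352 with bacterial controls, 568 among brighter probe sets, 609 with an offset of 50 and 348 among probe sets present on all 12 arrays, a restriction chosen after seeing the data. Among brighter probe sets 1 member probe set, of 1 gene (spn-4), was called in association. Fewer probe sets are tested there, and counts over all were 2411 (wild type, nonpolysomal), 2084 (ife-1, nonpolysomal) and 1856 (abundance, higher). Median scaling left 5 genes higher in abundance. With bacterial controls, 6 member probe sets of 3 genes were nonpolysomal in wild type and 3 genes in ife-1, with 928 and 2060 over all, and 3433 were higher in nonpolysomal signal. Unpaired fractions left 3 genes nonpolysomal in ife-1. Apart from the smaller number of probe sets tested, the cause was not tested.

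Leaving out a set or a culture removes degrees of freedom, and a lone genotype's pair of cultures is assumed to vary like the others. Over the 9 such fits, nonpolysomal members in wild type numbered 3 to 8 genes and 6 to 14 probe sets (all probe sets, 2456 to 3828), and in ife-1 3 to 5 genes and 6 to 9 probe sets (2038 to 3787). Association gave 0 members throughout and 0 to 1 probe sets over all. Abundance gave 0 to 8 genes and 0 to 13 probe sets (141 to 3311), polysomal signal 0 to 8 genes and 0 to 13 probe sets (34 to 3114), and nonpolysomal signal 0 to 5 genes and 0 to 7 probe sets (2 to 2207). The median abundance change of the 9 genes stayed between 0.73 and 0.93. Of 1506 values of single member probe sets over the alternatives, 58 changed sign, 140 no longer passed, 30 newly passed and 1278 kept direction and side of the threshold. Association held 33 of the 58 sign changes. Signal over background limits glp-1 in wild type and the dimmest skn-1 probe set.

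With bacterial controls 11 association values turned: -0.62 and -0.26 for apx-1 (brighter and dimmer probe set), -0.60 for glp-1, -0.17 and -0.30 for mex-3, -0.46 for nos-2, -0.04 and -0.46 for the dimmer pal-1 probe sets, -0.27 for rme-2, and -0.54 and -0.30 for skn-1. Wild-type log2(P/NP) turned there to 0.10 for the dimmer mex-3 probe set, 0.39 and 0.02 for skn-1 and 0.00 for apx-1. With median scaling association turned to -0.11 for apx-1, -0.09 for glp-1 and -0.03 for skn-1, and log2(P/NP) of lin-41 in ife-1 to -0.12. With signals as deposited association was -0.05 for apx-1 and -0.03 for glp-1. The offset gave 0.01 for lin-41 in association and -0.19 for the dimmest skn-1 probe set in ife-1. The nonpolysomal change of skn-1, at 0.00, was 0.13 as deposited, 0.14 with median scaling and 0.72 with bacterial controls. Without a set or culture, association spanned -0.10 to 0.35 and -0.20 to 0.54 for apx-1, -0.12 to 0.36 for glp-1, -0.26 to 0.19 for lin-41, -0.15 to 0.63 for nos-2 and -0.11 to 0.49 for skn-1. Abundance of skn-1 spanned -0.16 to 0.12, and nonpolysomal changes -0.39 to 0.19 and -0.03 to 0.28 for skn-1 and -0.07 to 0.54 for the dimmer apx-1 probe set. Values of log2(P/NP) spanned -0.12 to 0.34 for lin-41 in wild type and -0.87 to 0.71 for the dimmest skn-1 probe set in ife-1. None of the polysomal changes turned.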
